A study of Mus musculus with 18 samples.

Results

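The splicing factors and heterogeneous nuclear ribonucleoproteins (hnRNPs) described here are the genes whose symbol begins with Srsf, Sf3a, Sf3b, Hnrnp or Snrp. Membership was set by the name, but the members were chosen with earlier results of these data known. Of 54232 genes in the deposited table, 57 matched. After 4 genes named as pseudogenes were left out, 53 members remained. By role they fell into 11 SR proteins, 3 SF3A and 6 SF3B subunits, 8 proteins of the Sm core, 4 proteins specific to the U1 or U2 particle and 20 hnRNPs. The remaining member, Snrpert, is annotated as a processed pseudogene.

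Round spermatids (RS) are haploid germ cells that have finished meiosis and have not yet elongated. WT, GRTH-KO and GRTH-KI mice aged 75 to 85 days gave 6 RS libraries per genotype, and their total RNA was sequenced without polyA selection. KO mice lack GRTH, an RNA helicase of the testis encoded by Ddx25. KI mice are transgenic for a human GRTH gene with a missense mutation and lack the phosphorylated form of the protein, and spermatids of both genotypes fail to elongate. Levels are given as CPM, which scales each gene's counts to a common library size after normalization. Nothing in the labels ties a library to an animal, so p-values measure the spread between libraries.

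Ddx25 was 567 ± 24.7 CPM in WT and 70.0 ± 14.8 CPM in KO (SD, n = 6). It was between 0.0456 and 0.519 CPM in 5 KI libraries and 56.9 CPM in the library labelled KI 4, which lay inside the KO range of 47.7 to 90.9 CPM. The targeted gene thus went against the label of that library, and results for KI are given with and without it. Library depth ranged from 18766971 to 26776555 assigned fragments. Some libraries were also close to each other, by an index that is 1 where a pair differs by counting noise alone. KO 2 and the library labelled KI 4 had an index of 1.59. The index was between 2.12 and 3.001 for the pairs KO 4 and 5, WT 1 and 2, KI 1 and 2, KI 3 and 5, WT 3 and 4, and WT 5 and 6, and 4.62 or more for every other pair. Where 2 libraries of a pair are not independent, the p-values below are too small, so calls are also given with each pair summed to a single unit. In bulk RNA, fewer cells of a type and less RNA per cell cannot be told apart. Summed over 8 markers of elongating spermatids, such as protamines, the level was between 14216 and 19771 CPM in WT, between 1662 and 4190 CPM in KO and between 2203 and 3417 CPM in KI. The authors state that RNAs of this list such as Prm2 and Tnp2 are already transcribed in RS and stored for later translation. All 6 Leydig cell markers rose in KO and in KI (without the library labelled KI 4, 5 of the 5 still tested), and their sum was between 9.76 and 19.7 CPM in WT, between 29.9 and 52.0 CPM in KO and between 13.4 and 66.1 CPM in KI. The 8 markers of RS themselves summed to between 1094 and 1606 CPM in WT, between 832 and 1413 CPM in KO and between 745 and 1127 CPM in KI. The part of these differences in the results below was not tested.

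Most introns are removed by the major spliceosome, which is built anew on each intron from small nuclear RNA and protein particles. The Sm proteins form a ring around the small nuclear RNAs. The U1 particle recognises the donor splice site. SF3A and SF3B are subcomplexes of the U2 particle that hold it on the branch point, and SF3B1 clamps the branch point helix. SR proteins bind exons and recruit the spliceosome, while hnRNPs coat nascent RNA and often oppose or redirect splice site choice. Testis is among the tissues with the most alternative splicing, and transcription ends as spermatids elongate and their chromatin condenses.

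The sequences before the starts of 3 SF3 genes that rose in both genotypes, as described below, are shown. Sf3b3 also rose in both, and its sequence is not shown. They were read from RefSeq (GRCm38.p6) 5′ to 3′ on the strand of the gene. Each runs from 250 bases before the RefSeq start up to the start annotated for the counted gene. Sf3b6 is at chr12:4817358-4817543 (plus strand), Sf3a1 at chr11:4160104-4160349 (plus strand) and Sf3b1 at chr1:55027482-55027728 (minus strand). Capitals mark a GC box (GGGCGG) or an ETS site (CCGGAAG), read on either strand.
Sf3b6: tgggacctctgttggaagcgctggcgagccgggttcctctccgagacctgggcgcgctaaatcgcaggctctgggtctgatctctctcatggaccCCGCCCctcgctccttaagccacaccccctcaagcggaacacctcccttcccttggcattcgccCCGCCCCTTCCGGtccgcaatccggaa
Sf3a1: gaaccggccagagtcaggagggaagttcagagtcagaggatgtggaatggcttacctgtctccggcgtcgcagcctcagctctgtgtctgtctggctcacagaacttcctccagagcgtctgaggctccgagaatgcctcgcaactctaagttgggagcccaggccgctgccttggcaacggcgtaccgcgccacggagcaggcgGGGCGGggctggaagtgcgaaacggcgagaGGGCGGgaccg
Sf3b1: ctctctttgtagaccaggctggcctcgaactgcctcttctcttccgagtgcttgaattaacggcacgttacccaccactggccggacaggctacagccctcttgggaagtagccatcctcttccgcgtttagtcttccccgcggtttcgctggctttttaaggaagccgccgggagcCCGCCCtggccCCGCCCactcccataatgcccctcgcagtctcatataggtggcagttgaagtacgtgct
Each of these genes held 2 GC boxes in the full 250 bases. In Sf3b6 the second GC box abuts an ETS site. A second ETS site in Sf3b6, and the ETS site of Sf3a1, run past the annotated start and are not shown. Starts of 46 of the 53 members were in the RefSeq table, with 63 starts in all. A GC box was in 66.7% of these and in 32.7% of all 32851 promoters of the same length. An ETS site was in 30.2% of them and in 6.91% of all promoters. The CCAAT box (CCAAT) was in 42.9% against 33.8%, the TATA box (TATAAA) in 9.52% against 12.4% and the CRE (TGACGTCA) in 3.17% against 1.55%. The median GC content was 60.8% for the members and 52.4% for all promoters. These matches describe letters in a window and not sites in use.

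All 53 members were detected in every library and all passed the filter on low counts. Per kilobase of annotated exon, their levels in WT spanned 144-fold. The order is that of the 6 WT libraries, and 50 of its 52 neighbouring pairs had overlapping ranges. The exceptions were Hnrnpf above Hnrnpu, and Sf3b6 above Srsf12. The plot of WT levels shows how uneven the levels were within a complex. In SF3B, Sf3b2 was at 117 ± 14.9 CPM per kilobase and Sf3b6, which contacts the branch point adenosine, at 1.75 ± 0.285 CPM per kilobase (SD, n = 6). In the Sm core, Snrpf was highest of all members with 119 ± 27.4 CPM per kilobase and Snrpn was lowest of its group with 2.01 ± 0.369 CPM per kilobase. Of the 861 exon bases of Snrpf, 735 overlap Ccdc38 and 4933408J17Rik on the other strand. Counting was strand-specific, and the part of this overlap in the level of Snrpf was not tested. In SF3A the levels were closer, from 12.7 ± 1.59 CPM per kilobase for Sf3a1 to 30.1 ± 6.39 CPM per kilobase for Sf3a3. Among the U1 and U2 proteins, Snrpb2 was at 17.4 ± 5.29 and Snrpa1 at 8.51 ± 1.03 CPM per kilobase. Srsf5 was the highest SR gene with 46.8 ± 1.28 CPM per kilobase, and Srsf12 was the lowest of all members with 0.826 ± 0.135 CPM per kilobase. Hnrnpab led the hnRNPs with 82.3 ± 15.2 CPM per kilobase, and Hnrnpr was lowest with 3.83 ± 0.182 CPM per kilobase. Exon length in the annotation sets this scale, and it is 22199 bases for Hnrnpr and 2854 bases for Sf3b6.

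**Figure D1:**
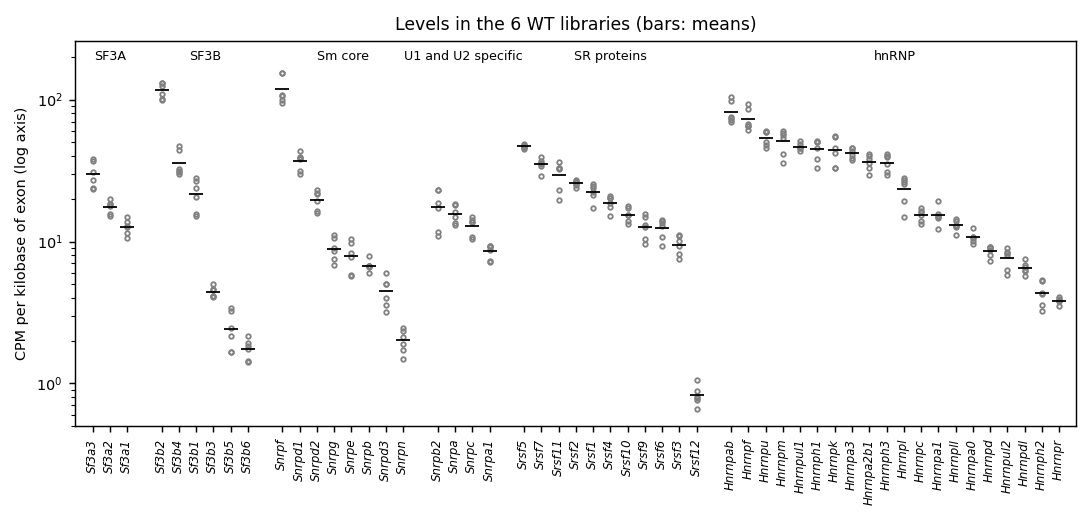
Level of each member in the 6 WT libraries in CPM per kilobase of exon, on a log axis, grouped by role (circles: libraries, bars: means; Snrpert not drawn). Levels ran from 0.826 for Srsf12 to 119 for Snrpf, and SF3B and the Sm core each spanned most of that range.

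In KO, 5 SF3 subunits, 5 hnRNPs, the Sm genes Snrpb and Snrpd3, Srsf9 and Snrpa rose, and the Sm genes Snrpd2 and Snrpn fell. Tested for a change of any amount (edgeR's quasi-likelihood test, adjusted p under 0.1 over 21058 genes), 14 of 53 members rose in KO, or 26.4%, beside 16.4% of all genes tested. Only 2 members fell, or 3.77%, beside 13.5% of all genes. Of the members called, 5 that rose did not overlap WT in any library, beside 6.54% of all genes, and 0 that fell, beside 6.35%. Fitted without the library labelled KI 4, 12 rose, beside 16.8% of all genes, and 3 fell, beside 13.7%. The median log2 fold change was 0.08 over the members and 0.03 over all genes tested. The split depended on scaling. With RLE size factors it was 9 higher, or 17%, beside 14.9% of all genes, and 4 lower, or 7.55%, beside 14.1%. With DESeq2 it was 9 higher, or 17%, beside 11.8% of all genes, and 3 lower, or 5.66%, beside 10.9%. Leaving out WT 1, WT 2 or KO 2 gave 8 higher each, or 15.1%, beside 14%, 14.2% and 13.7% of all genes. Leaving out WT 5 gave 9, or 17%, beside 14.2% of all genes. With close pairs summed, 1 rose, or 1.89%, beside 4.82% of all genes, and 1 fell, or 1.89%, beside 6.71%. The number of all genes called higher went from 3461 to 1151.

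In KI, 10 members rose, or 18.9%, beside 16.1% of all genes tested, a share near that of all genes. A further 3 members fell, or 5.66%, beside 15.4% of all genes. Those called without overlap with WT were 5 that rose, beside 5.93% of all genes, and 2 that fell, beside 7.9%. Without the library labelled KI 4, 9 rose, beside 14.5% of all genes, and 4 fell, beside 15.8%. The median log2 fold change was 0.15 over the members and 0.05 over all genes. Scaling by library totals gave 22 higher in KI, or 41.5%, beside 26.7% of all genes, and 3 lower, beside 11.8%. It moved the median of all genes to 0.20 in KI and to 0.15 in KO. After close pairs were summed, 1 rose in KI, or 1.89%, beside 4.58% of all genes, and 1 fell, or 1.89%, beside 6.4%.

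All 10 members that rose in KI were among the 14 that rose in KO, or 71.4% of those. They were Sf3a1, Sf3b1, Sf3b3, Sf3b6, Snrpa, Snrpb, Snrpd3, Srsf9, Hnrnpu and Hnrnpul1. Snrpd2 and Snrpn fell in both genotypes. Both comparisons use the same WT libraries, so these lists are not independent. In KI against KO, 0 members were called higher, beside 0.076% of all genes, and 0 lower, beside 0.0237%. There, 0 members had an unadjusted p under 0.05 in edgeR, and DESeq2 called 0. Without the library labelled KI 4, 0 members were called there, beside 0.282% of all genes called higher and 0.24% lower. The log2 differences between KI and KO lay between -0.37 and 0.34. Past 1 log2 unit (edgeR's glmTreat), 0 members were called in KO, beside 0.598% of all genes called higher and 1.13% lower, and 0 in KI, beside 0.522% and 1.43%. In KI against KO, 0 members were called past 1 log2 unit, beside 0.00475% and 0%. The unadjusted p of this test was under 0.05 for 0 members in any comparison, and DESeq2 called 0. In both comparisons 36 members were not called, with log2 fold changes between -0.31 and 0.27 in KO and between -0.23 and 0.33 in KI. The plot of fold changes gives all members by role.

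**Figure D2:**
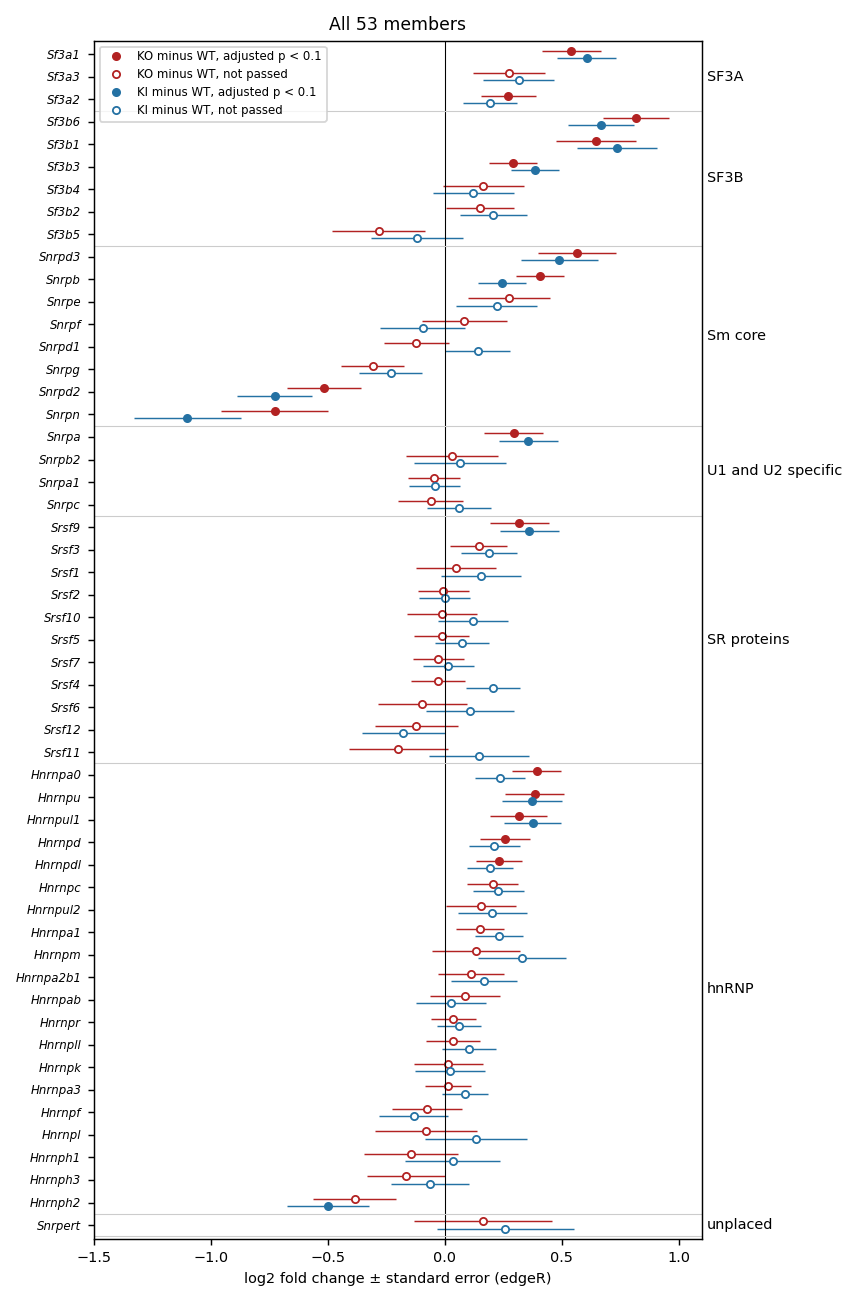
log2 fold change of each member in KO (red) and KI (blue) against WT, with its standard error, ordered by role (filled: adjusted p under 0.1 for any change, edgeR). Sf3b6 and Sf3b1 lie farthest to the right and Snrpn and Snrpd2 farthest to the left, and no member was called past 1 log2 unit.

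Of the SF3 subunits, 5 of 9 rose in KO, beside 16.4% of all genes, and 4 of 9 in KI, beside 16.1%. In both genotypes 0 fell, beside 13.5% of all genes in KO and 15.4% in KI. With close pairs summed, 1 of the 9, Sf3b6, was called higher in each genotype, beside 4.82% of all genes in KO and 4.58% in KI. The gene with the clearest change was Sf3b6 (ENSMUSG00000037361, chr12:4817544-4827659), whose promoter is shown above. Its level had a low of 4.07, a median of 5.09 and a high of 6.16 CPM in WT, 7.66, 8.32 and 10.3 CPM in KO, and 6.22, 8.01 and 9.65 CPM in KI. Every KO and KI library was above every WT library, although the lowest KI library exceeded the highest WT library by little. The log2 fold change was 0.82 in KO (SE 0.14, adjusted p = 0.00019, edgeR) and 0.67 in KI (SE 0.14, adjusted p = 0.00125, edgeR). Without the library labelled KI 4 it was 0.60 in KI (adjusted p = 0.00378, edgeR). This was the member that stayed called higher with close pairs summed (adjusted p = 0.0288 in KO and 0.0767 in KI, edgeR). Its counts were low, between 89 and 233 per library.

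Sf3a1 (ENSMUSG00000002129, chr11:4160350-4182541) encodes the largest SF3A subunit. Its level had a low of 64.7, a median of 78.1 and a high of 92.2 CPM in WT, 99.5, 111.6 and 132 CPM in KO, and 98.9, 110.4 and 147 CPM in KI. Neither KO nor KI overlapped WT. Against WT it changed by a log2 fold of 0.54 in KO (SE 0.13, adjusted p = 0.00312, edgeR) and 0.61 in KI (SE 0.13, adjusted p = 0.00104, edgeR). In KI the highest libraries were the pair KI 1 and KI 2, with 147 and 146 CPM, and the pair KI 3 and KI 5 was lowest. With close pairs summed, the adjusted p was 0.156 in KO and 0.107 in KI.

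Sf3b1 (ENSMUSG00000025982, chr1:54985169-55027481) is the largest SF3B subunit and the target of several splicing inhibitors. Its level had a low of 172, a median of 252 and a high of 316 CPM in WT, 305, 391.8 and 454 CPM in KO, and 333, 403 and 493 CPM in KI. KI did not overlap WT, while in KO the lowest library lay under WT 3 and WT 4. The log2 fold change was 0.65 in KO (SE 0.17, adjusted p = 0.00802, edgeR) and 0.74 in KI (SE 0.17, adjusted p = 0.00271, edgeR), and 0.71 in KI without the library labelled KI 4. WT 1 and WT 2 were lowest, with 172 and 177 CPM. After close pairs were summed, the adjusted p was 0.19 in KO and 0.14 in KI.

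Sf3b3 (ENSMUSG00000033732, chr8:110810239-110846787), a beta-propeller scaffold of SF3B, had a low of 44.3, a median of 47.4 and a high of 54.9 CPM in WT, 50.1, 58.3 and 70.1 CPM in KO, and 57.2, 63.2 and 69.0 CPM in KI. KI lay above WT without overlap and KO overlapped it. On the log2 scale the change was 0.29 in KO (SE 0.10, adjusted p = 0.0403, edgeR) and 0.38 in KI (SE 0.10, adjusted p = 0.00722, edgeR). The KO call was lost without WT 3, without the filter on low counts and with close pairs summed (adjusted p = 0.483). Of its exon bases, 145 are shared with Gm22193 and Snord111 on the same strand and 188 with Cog4 on the other. Sf3a2 was called in KO alone (log2 fold change 0.27, adjusted p = 0.0979, edgeR), and that call was lost with DESeq2 and RLE size factors. The other 4 SF3 members were not called. Among them Sf3b2, the most abundant, had log2 fold changes of 0.15 in KO and 0.21 in KI, and Sf3b5 had -0.28 and -0.12.

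**Figure D3:**
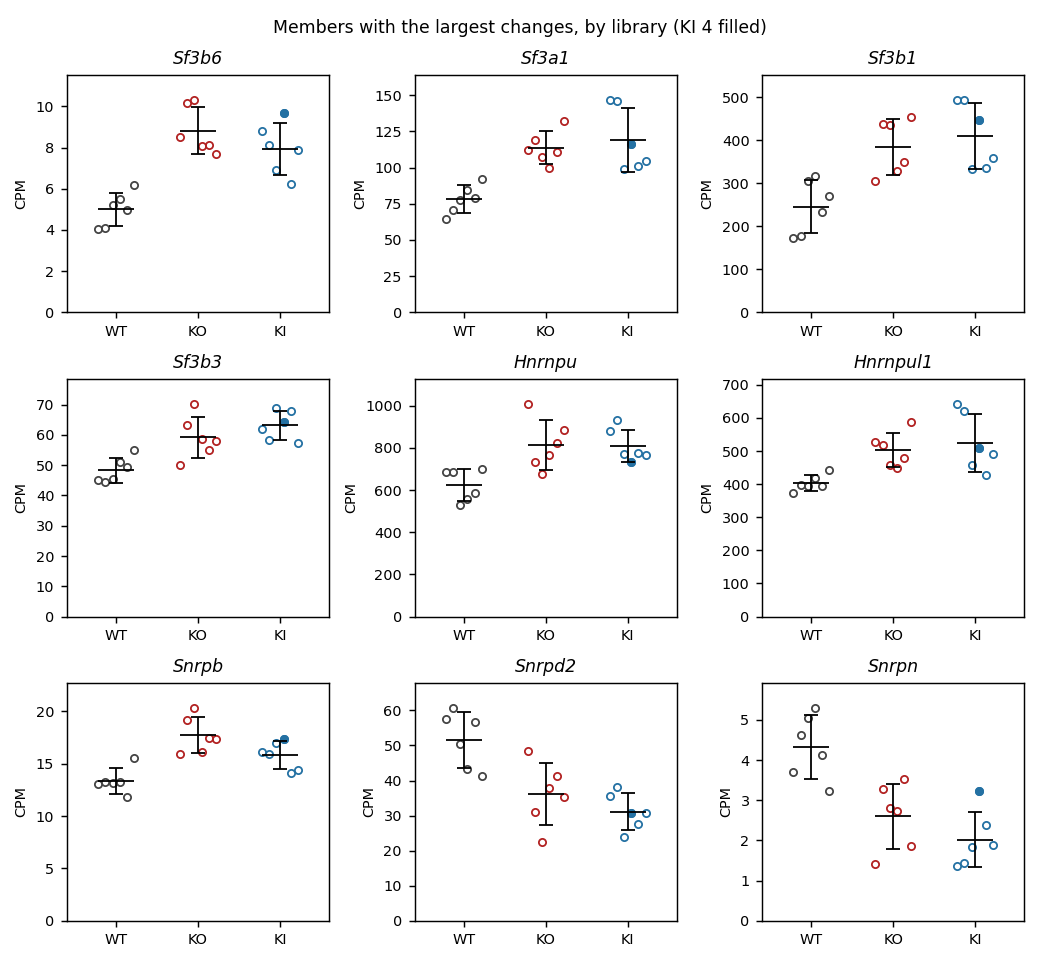
CPM in each library for 9 members (open circles: libraries, filled circle: the library labelled KI 4, bars: mean ± SD, n = 6). Sf3b6 and Sf3a1 lie above WT in all KO and KI libraries, and in KI the levels of Snrpd2 and Snrpn lie at or under the lowest WT library.

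The Sm core moved in different directions. Snrpb and Snrpd3 rose, Snrpd2 and Snrpn fell, and Snrpd1, Snrpe, Snrpf and Snrpg were not called. The summed level of the 8 genes was 243 ± 30.2 CPM in WT, 241 ± 19.2 CPM in KO and 225 ± 47.6 CPM in KI (SD, n = 6). Snrpb and Snrpn encode closely related Sm proteins that take the same place in the ring.

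Snrpn (ENSMUSG00000102252, chr7:59982495-60140219), an imprinted gene expressed from the paternal copy, had a low of 3.22, a median of 4.37 and a high of 5.28 CPM in WT, 1.42, 2.76 and 3.52 CPM in KO, and 1.37, 1.85 and 3.22 CPM in KI. KI lay under WT, with the library labelled KI 4 just under WT 6, and KO overlapped WT. The log2 fold change was -0.73 in KO (SE 0.23, adjusted p = 0.0225, edgeR) and -1.10 in KI (SE 0.23, adjusted p = 0.0011, edgeR). Without the library labelled KI 4 the value in KI was -1.28 (adjusted p = 0.000235, edgeR). With close pairs summed it stayed called, with an adjusted p of 0.0496 in KO and 0.0189 in KI. Its counts lay between 26 and 115. Of its 2159 exon bases, 805 are shared on the same strand with Snurf, which had 0 counts in all libraries, and with Gm38393, which had between 29 and 80 counts, so its level is uncertain on the shared bases.

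Snrpd2 (ENSMUSG00000040824, chr7:19149722-19153542), which pairs with Snrpd1 in the ring, had a low of 41.4, a median of 53.5 and a high of 60.6 CPM in WT, 22.5, 36.6 and 48.5 CPM in KO, and 23.8, 30.8 and 38.2 CPM in KI. All KI libraries were under all WT libraries, and KO 1 and KO 5 overlapped WT. Its change on the log2 scale was -0.52 in KO (SE 0.16, adjusted p = 0.0208, edgeR) and -0.73 in KI (SE 0.16, adjusted p = 0.00157, edgeR). With close pairs summed, the adjusted p was 0.215 in KO and 0.126 in KI. Its partner Snrpd1 had log2 fold changes of -0.12 in KO and 0.14 in KI. Snrpg, with -0.31 and -0.23, was called lower in both genotypes only without the library labelled KI 4 (adjusted p = 0.0828 and 0.0932, edgeR).

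Snrpb (Sm B) had a low of 11.8, a median of 13.2 and a high of 15.5 CPM in WT, 15.9, 17.4 and 20.3 CPM in KO, and 14.1, 16.04 and 17.4 CPM in KI. KO did not overlap WT. The log2 fold change was 0.41 in KO (SE 0.10, adjusted p = 0.0053, edgeR) and 0.25 in KI (adjusted p = 0.0854, edgeR). The KI call was lost without the library labelled KI 4 (adjusted p = 0.156, edgeR). Snrpd3 had log2 fold changes of 0.57 in KO and 0.49 in KI, with overlapping ranges. Of the U1 and U2 proteins, Snrpa, the U1 protein that binds a stem-loop of the particle's RNA, rose by 0.29 log2 units in KO (adjusted p = 0.0987, edgeR) and 0.36 in KI (adjusted p = 0.0421, edgeR). Its KO call was lost with DESeq2 and RLE size factors and its KI call without WT 1. Snrpa1, Snrpb2 and Snrpc were called in neither genotype.

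Of the 20 hnRNPs, 5 rose in KO, or 25.0%, beside 16.4% of all genes, and 0 fell, beside 13.5%. Without the library labelled KI 4, 4 rose in KO, beside 16.8% of all genes. In KI 2 rose, or 10%, beside 16.1% of all genes, and 1 fell, or 5.0%, beside 15.4%. Hnrnpu, a scaffold protein of nuclear RNA and chromatin, had the highest level of the hnRNPs in CPM. It had a low of 530.5, a median of 636 and a high of 699.7 CPM in WT, 677, 795 and 1008 CPM in KO, and 735, 772 and 932 CPM in KI. KI was above WT in every library, and KO 3 overlapped WT. Its log2 change from WT was 0.38 in KO (adjusted p = 0.0315, edgeR) and 0.37 in KI (adjusted p = 0.0353, edgeR). It was lost without the filter on low counts and with close pairs summed (adjusted p = 0.358 and 0.359).

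Hnrnpul1, a relative of Hnrnpu, had a low of 375, a median of 396 and a high of 444 CPM in WT, 448, 498 and 587 CPM in KO, and 427, 499 and 642 CPM in KI. KO lay above WT by a narrow margin, and KI 5 overlapped WT. The log2 fold change was 0.32 in KO (adjusted p = 0.0664, edgeR) and 0.38 in KI (adjusted p = 0.0274, edgeR). The KO call was lost without WT 1, WT 2, WT 5, KO 2 or KO 6. Hnrnpd, which binds AU-rich RNA and is also known as AUF, had a low of 53.7, a median of 65.0 and a high of 66.9 CPM in WT, 69.0, 72.5 and 90.2 CPM in KO, and 63.1, 71.2 and 85.0 CPM in KI. Its log2 fold change was 0.26 in KO (adjusted p = 0.0902, edgeR) and was not called in KI (0.21). The KO call was lost with DESeq2 and RLE size factors and when any of 10 libraries was left out. Hnrnpa0 and Hnrnpdl were called in KO alone (log2 fold changes 0.39 and 0.23), and the call of Hnrnpdl held in only 3 of 18 fits that left out a library. Hnrnph2 fell in KI (log2 fold change -0.50, adjusted p = 0.042, edgeR), a call lost without WT 3. Among the 14 hnRNPs called in neither genotype were Hnrnpa1, Hnrnpa2b1, Hnrnpc and Hnrnpk, with log2 fold changes of 0.15, 0.11, 0.21 and 0.02 in KO. Hnrnpm shares 1169 of its 4701 exon bases with March2 on the same strand, and smaller overlaps touch Hnrnpul2, Hnrnpa3 and Snrpa1.

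Of the 11 SR proteins, Srsf9 alone was called, with log2 fold changes of 0.32 in KO (adjusted p = 0.0751, edgeR) and 0.36 in KI (adjusted p = 0.041, edgeR). Its KO call was lost with DESeq2 and RLE size factors. The other 10 had log2 fold changes between -0.20 and 0.21. Their summed level was 1028 ± 99.5 CPM in WT, 1001 ± 106 CPM in KO and 1117 ± 276 CPM in KI (SD, n = 6), so the spread in KI was wider than any distance between genotypes.

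That spread had a shape of its own. In KI the SR sum was 1454 and 1429 CPM in KI 3 and KI 5, and 865 and 826 CPM in KI 1 and KI 2. SF3B went the other way, with 824 and 812 CPM in KI 3 and KI 5 and 1224 and 1231 CPM in KI 1 and KI 2. KI 3 and KI 5 were the highest KI libraries for 10 of 11 SR genes and the lowest for 3 of 3 SF3A and 5 of 6 SF3B genes. The SR gene with the widest range was Srsf11, with 409 and 408 CPM in KI 3 and KI 5 and 187 and 173 CPM in KI 1 and KI 2. The hnRNPs were split, since of 20 genes KI 3 and KI 5 were the highest KI libraries for 8 and the lowest for 7. Hnrnpl, Hnrnph1 and Hnrnpm, named after their values were seen, were among the 8. Hnrnpl was at 235 and 211 CPM in KI 3 and KI 5 and at 91.7 and 90.2 CPM in KI 1 and KI 2. WT showed the contrast less widely, with an SR sum of 856 and 971 CPM and an SF3B sum of 891 and 913 CPM in WT 3 and WT 4, against 1097 and 1036 CPM and 614 and 629 CPM in WT 1 and WT 2. In KO, library 3 was highest for the SR sum, with 1214 CPM, and the other 5 lay between 943 and 988 CPM. KO 3 was in no close pair (lowest index 7.25), while the contrasts in KI and WT were between close pairs. No test was made of these contrasts.

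The nuclear-retained RNA Neat1, chosen after its values were seen, moved with the SR sum. It was 114 and 101 CPM in KI 3 and KI 5, 36.2 and 33.9 CPM in KI 1 and KI 2, 34.0 and 43.2 CPM in WT 3 and WT 4, and 70.9 CPM in KO 3. Its part in the SR and SF3 levels was not tested. The ratio of the SR sum to the SF3B sum ran from 0.671 in KI 2 to 1.79 in WT 1 and was 1.77 in KI 3. Between genotypes the SF3B sum was 763 ± 129 CPM in WT, 966 ± 101 CPM in KO and 1009 ± 195 CPM in KI (SD, n = 6), with overlapping ranges. The SF3A sum was 209 ± 28.9, 271 ± 26.0 and 276 ± 52.5 CPM, and KO did not overlap WT.

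**Figure D4:**
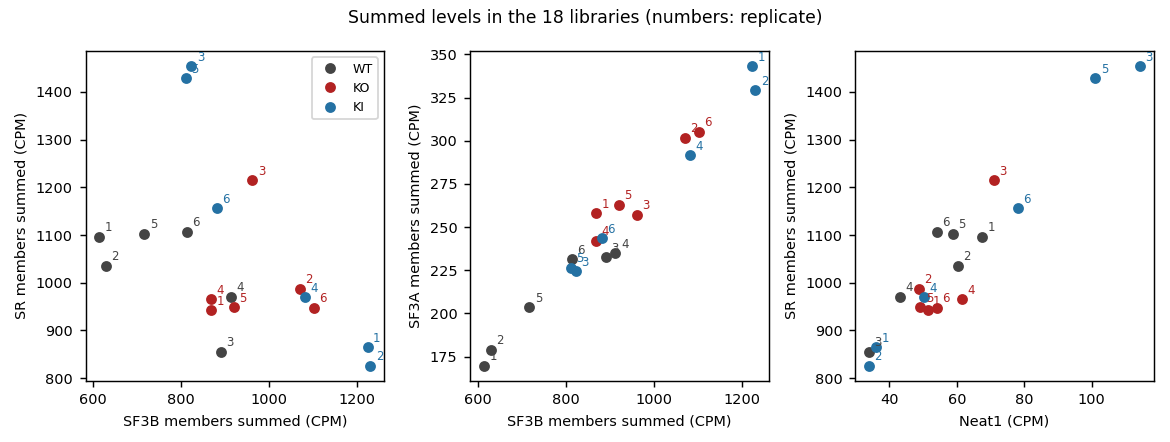
Summed CPM of the SR members against SF3B (left), of SF3A against SF3B (middle), and of SR against Neat1 (right) in the 18 libraries, coloured by genotype with replicate numbers. KI 3 and KI 5 stand at the top left of the first panel (SR 1454 and 1429 CPM) and KI 1 and KI 2 at its lower right, while SF3A and SF3B rise together.

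The members were set beside 134 other genes of splicing, of which 129 were tested. This list and its subgroups were chosen with earlier results of these data known, so their shares are a description only. In KO 40 rose, or 31.0%, beside 16.4% of all genes, and 9 fell, or 6.98%, beside 13.5%. In KI 41 rose, or 31.8%, beside 16.1% of all genes, and 9 fell, or 6.98%, beside 15.4%. In KI against KO, 0 were called by edgeR or DESeq2, and 2 had an unadjusted p under 0.05. After close pairs were summed, 7 rose and 4 fell in KO, beside 4.82% of all genes higher and 6.71% lower. In KI 7 rose and 3 fell in that fit, beside 4.58% of all genes higher and 6.4% lower. In the PRP19 complex and the factors of catalysis, 7 of 18 rose in KO (38.9%, beside 16.4% of all genes) and 10 of 18 in KI (55.6%, beside 16.1%), and 1 fell in each. Of 16 proteins of the tri-snRNP, 6 rose (37.5%) and 1 fell (6.25%) in each genotype. For these and the next subgroups, the shares of all genes were 16.4% higher and 13.5% lower in KO, and 16.1% and 15.4% in KI. Of 9 minor spliceosome genes, 3 rose in each genotype (33.3%) and 0 fell. Of 17 tested branch point and donor site genes, 5 rose in each genotype (29.4%) and 0 fell. Of 7 LSm genes, 2 rose in each genotype (28.6%), and 1 fell in KO (14.3%) and 2 in KI (28.6%). Of 15 tested SR kinases and SR-related genes, 2 rose in each genotype (13.3%), and 2 fell in KO (13.3%) and 1 in KI (6.67%). Of 35 tested regulators of alternative splicing, 12 rose in KO (34.3%) and 11 in KI (31.4%), and 0 fell. The largest changes that follow are those over all the other splicing genes. The largest rises in KO were in Mbnl3 (log2 fold change 1.18), Mbnl2 (1.04) and Esrp1 (0.97). In KI they were in Mbnl2 (0.90), the U2AF-related Zrsr1 (0.80) and the poly(C)-binding protein gene Pcbp1 (0.75). Muscleblind proteins such as Mbnl2 and Mbnl3 switch exons during differentiation. Mbnl2 was 8.16 ± 1.23 CPM in WT, 16.7 ± 3.30 CPM in KO and 15.2 ± 2.88 CPM in KI (SD, n = 6), without overlap. Mbnl3 was at 0.785 ± 0.321 CPM in WT and 1.78 ± 0.513 CPM in KO, with overlap.

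Of 12 genes that assemble Sm proteins onto their RNAs, 3 rose in KO (25.0%, beside 16.4% of all genes) and 2 in KI (16.7%, beside 16.1%). In each genotype 4 fell (33.3%, beside 13.5% of all genes lower in KO and 15.4% in KI). These 4 were Gemin4, Gemin6, Gemin7 and Ddx20, parts of the complex around the SMN protein. Gemin4 was 7.47 ± 0.944 CPM in WT, 3.47 ± 0.236 CPM in KO and 2.84 ± 0.459 CPM in KI (SD, n = 6). Its log2 fold change was -1.10 in KO (adjusted p = 2.84e-06, edgeR) and -1.39 in KI (adjusted p = 9.76e-08, edgeR), the largest fall among the splicing genes in each genotype. Outside the members, the next largest falls were in Lsm2 and Srpk2. Lsm2, a subunit of the LSm ring of the U6 particle, had log2 fold changes of -0.92 in KO and -0.87 in KI. Srpk2, a kinase of SR proteins, had -0.91 in KO and -1.12 in KI. Srpk2 was 389 ± 76.3 CPM in WT, 207 ± 66.0 CPM in KO and 179 ± 16.2 CPM in KI, while its SR substrates other than Srsf9 were not called. Without the library labelled KI 4, Gemin4 had a log2 fold change of -1.44 and Srpk2 of -1.10 in KI.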

How the data were processed

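RNA of isolated RS was sequenced in 18 libraries, 6 each of WT, KO and KI. Raw fragment counts for 54232 genes were deposited. To make them the authors used cutadapt 3.4 for trimming, STAR 2.7.8a for alignment to GRCm38, and featureCounts (Subread 2.0.1) for strand-specific counting on GENCODE M18, and duplicates stayed in. Reads that also match near-identical copies, frequent for hnRNP and Sm genes, can be lost. Symbols and overlaps came from GENCODE M21 of the same build. Every column was matched to a library by its label. Members and gene lists were chosen with earlier results of these data known.

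In edgeR 4.0.16 (R 4.3.3, limma 3.58.1), filterByExpr kept 21058 genes and TMM set the scale. One quasi-likelihood fit with genotype as the factor held the 18 libraries. Any change was tested with glmQLFTest and changes past 1 log2 unit with glmTreat, with Benjamini-Hochberg adjusted p under 0.1 over all genes tested. The method was tested on simulated counts. Totals were between 18766971 and 26776555 counts, and a gene with 3 or fewer counts would be at the floor, which no member was. Counting errors exclude PCR duplicates. The alternatives were DESeq2 1.42.0, RLE size factors, library totals, no filter, at least 10 counts in every library, a replicate block, a fit of only the genotypes compared, adjusted p under 0.05, close pairs (index under 4) summed, and leaving out each library.

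The lowest, median and highest value in each genotype is given for members called without overlap, the 5 largest rises and falls in each comparison. The values of every library are drawn for these members other than Hnrnpd. Levels are also given for the highest and lowest member of each role, and folds for the 3 largest rises and falls of other splicing genes. Of the tested markers, elongating spermatid genes fell in KO and KI (8 of 8), Leydig genes rose (6 of 6), spermatogonial genes rose in 4 and 3 of 9, spermatocyte genes rose in 3 of 10 and fell in 1, RS genes fell in 2 and 4 of 8, Sertoli genes fell in 3 and 2 of 9, macrophage genes rose in 2 of 6 and fell in 1, and of 5 peritubular and endothelial genes 2 rose in KO, 1 rose in KI and 1 fell.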

Additional observations from a re-analysis of the deposited data

Results flagged for a closer look

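In each genotype, the highest and the lowest library of every member were compared with the other 5 by Dixon's ratio of gap to range at its 95% critical value. Of 159 groups of 6 libraries, 11 passed it, and chance alone passes about 1 in 20. In KO 3, Srsf1 (170.3 CPM), Srsf6 (72.1 CPM), Hnrnph1 (313 CPM), Hnrnpl (177 CPM) and Hnrnpm (319 CPM) stood above the other KO libraries. In KO 2, Sf3b4 (117 CPM), Snrpf (140.1 CPM), Hnrnpab (294 CPM) and Hnrnpd (90.2 CPM) stood above the other KO libraries, and Hnrnpll (136 CPM) stood under them. Hnrnpa0 (41.1 CPM) stood apart in the library labelled KI 4. Ddx25 (56.9 CPM) stood above the other KI libraries in the library labelled KI 4.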

How the results depend on the processing

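Over the alternatives and the libraries left out in turn, Sf3b6 and Snrpn stayed called in KO and in KI, and no called change reversed its sign. Small changes that were not called could change sign. Hnrnpab in KI had a log2 fold change of 0.03, and of -0.03 without the library labelled KI 4. In KO, members called higher numbered 14 (26.4%, beside 16.4% of all genes). They numbered 9 with DESeq2 (17% beside 11.8%) and 9 with RLE size factors (17% beside 14.9%). Without the filter on low counts there were 6 (11.3% beside 6.25%), and at adjusted p under 0.05 there were 8 (15.1% beside 12.7%). With close pairs summed there was 1 (1.89% beside 4.82%). When a library was left out there were between 8 and 14 (15.1% to 26.4%, beside 13.7% to 16.8% of all genes). Members called lower in KO numbered 2 (3.77%, beside 13.5% of all genes), and 4 with RLE size factors (7.55% beside 14.1%). With close pairs summed there was 1 (1.89% beside 6.71%). Without a library there were 2 to 3 (3.77% to 5.66%, beside 11.9% to 14.3% of all genes). In KI, members called higher numbered 10 (18.9%, beside 16.1% of all genes), and 22 with library totals (41.5% beside 26.7%). With close pairs summed there was 1 (1.89% beside 4.58%). Without a library there were 8 to 15 (15.1% to 28.3%, beside 13.7% to 18% of all genes). Members called lower in KI numbered 3 (5.66%, beside 15.4% of all genes), and 1 with close pairs summed (1.89% beside 6.4%). Without a library there were 2 to 4 (3.77% to 7.55%, beside 12.3% to 16.2% of all genes). Of the other splicing genes, those called lower in KO numbered 9 (6.98%, beside 13.5% of all genes). They numbered 5 with library totals (beside 10.2%), 4 with close pairs summed (beside 6.71%) and 5 without WT 3 (beside 12.2%). Over the libraries left out they numbered 5 to 9, beside 11.9% to 14.3% of all genes. Those called higher in KO numbered 40 (31.0%, beside 16.4% of all genes), and 7 with close pairs summed (beside 4.82%). Without a library they numbered 34 to 41, beside 13.7% to 16.8% of all genes. Those called higher in KI numbered 41 (31.8%, beside 16.1% of all genes), and 63 with library totals (beside 26.7%). They numbered 7 with close pairs summed (beside 4.58%) and 35 to 45 without a library (beside 13.7% to 18%). Those called lower in KI numbered 9 (6.98%, beside 15.4%). They numbered 3 with close pairs summed (beside 6.4%) and 6 to 11 without a library (beside 12.3% to 16.2%). Summing left 3 units in WT, 4 in KO and 3 in KI, without KO 2 and the library labelled KI 4, so fewer samples entered the test. The other causes were not tested. With close pairs summed, 23875 genes were tested. Of these, 4.82% were called higher and 6.71% lower in KO, and 4.58% higher and 6.4% lower in KI.

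Whether the replicate numbers pair the libraries was not settled. Of 18 correlations between libraries of the same number, 7 exceeded 0.1, and they ran from -0.44 to 0.48. The median between libraries of different numbers was -0.03. With the replicate block, 10 members were called higher in KO (18.9%, beside 16% of all genes) and 2 lower (3.77% beside 13.8%). In KI it called 9 higher (17% beside 15.2%) and 3 lower (5.66% beside 15.8%). The block lost the KO calls of Hnrnpd, Hnrnpdl, Sf3a2 and Snrpa and the KI call of Snrpb.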
